A study of Mus musculus with 1024 samples.

Results

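The genes of both chains of the interferon-gamma receptor (Ifngr1 and Ifngr2), of both chains of the type I interferon receptor (Ifnar1 and Ifnar2), of the kinases Jak1 and Jak2, of the transducer Stat2, of the transcription factor Irf1 and of the inhibitor Socs1 were examined in single cells of the mouse aorta. These 9 genes were taken by symbol from the 24422 genes of the counts table. All 9 were present, and all 9 passed the filter on low counts in each comparison. Cells came from the aortas of WT mice and of amotl2 ec-/ec- mice (KO), all aged 3 months and of C57BL/6 background. The paper included both sexes over all its experiments, and the sex of the mice used here is not given. The strain entry is the same for WT and KO wells (Amotl2flow/flow / Cdh5-RREert /ROSA26-EYFP), and the methods describe a floxed amotl2 allele, deleted by tamoxifen through Cdh5(PAC)CreERT2, a Cre that is driven by an endothelial promoter. Cells without Cd45 were sorted into wells either as Cd31+ cells, labelled Endothelial, or as Cd31- cells, labelled DoubleNegative. The labels give 2 sorts per genotype, called preparations here, and name no mouse. Wells were therefore summed per label, genotype and preparation, which gave 8 sums with 2 per group.

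Interferon gamma binds a receptor built of Ifngr1, the ligand-binding chain, and Ifngr2, the chain that is needed for signalling. Jak1 sits on Ifngr1 and Jak2 on Ifngr2, and the activated kinases lead to the binding of gamma-activated sites (GAS) in DNA. Type I interferons bind Ifnar1 and Ifnar2, which act through Tyk2 and Jak1 on Stat2. Together with Irf9, Stat2 binds interferon-stimulated response elements (ISRE). Irf1 is an early target that carries the response on to further genes, and Socs1 is an induced inhibitor of the kinases. In vessels, ECs respond to interferon with antigen presentation genes, chemokines and guanylate-binding proteins.

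Per exon length, Ifngr1 was the highest of the 9 genes in the Endothelial sums and Socs1 the lowest. Between the labels, both chains of the interferon-gamma receptor differed in opposite directions: Ifngr1 was higher and Ifngr2 lower in Endothelial wells. No other member passed the test between the labels, and none passed it between the genotypes. In clusters of wells, the high Ifngr2 level was that of smooth muscle wells, while fibroblast wells held more Ifngr1 than Ifngr2.

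The promoters of 5 members are shown because the results turn on them: Ifngr1 and Ifngr2 differed between the labels, and Stat2, Irf1 and Socs1 are the members known as targets of the pathway itself. Each window runs from 250 bases before to 50 bases after the RefSeq start of GRCm38.p6 on the gene's strand. Capitals mark a match to either of the motifs searched on both strands, the GAS letters TTCNNNGAA and the ISRE-like letters GAAANNGAAA.
Ifngr1, chr10:19591699-19591998, plus strand: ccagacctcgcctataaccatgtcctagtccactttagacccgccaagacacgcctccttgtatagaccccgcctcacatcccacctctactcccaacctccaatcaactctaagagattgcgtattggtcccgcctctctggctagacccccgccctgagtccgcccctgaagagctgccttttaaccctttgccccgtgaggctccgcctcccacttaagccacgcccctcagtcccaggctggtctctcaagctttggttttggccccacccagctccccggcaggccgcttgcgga
Ifngr2, chr16:91546809-91547108, plus strand: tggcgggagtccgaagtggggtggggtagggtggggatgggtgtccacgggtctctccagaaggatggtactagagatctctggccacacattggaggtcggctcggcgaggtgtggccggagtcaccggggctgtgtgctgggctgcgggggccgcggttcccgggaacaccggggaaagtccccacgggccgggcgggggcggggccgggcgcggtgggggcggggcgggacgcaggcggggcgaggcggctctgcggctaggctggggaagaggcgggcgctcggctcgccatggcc
Stat2, chr10:128270248-128270547, plus strand: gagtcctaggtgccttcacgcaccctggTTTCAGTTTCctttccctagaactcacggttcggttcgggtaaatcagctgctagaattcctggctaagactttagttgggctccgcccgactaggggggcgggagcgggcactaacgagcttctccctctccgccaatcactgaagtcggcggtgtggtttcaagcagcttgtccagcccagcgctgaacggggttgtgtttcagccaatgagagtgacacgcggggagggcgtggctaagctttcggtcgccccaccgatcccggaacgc
Irf1, chr11:53769764-53770063, plus strand: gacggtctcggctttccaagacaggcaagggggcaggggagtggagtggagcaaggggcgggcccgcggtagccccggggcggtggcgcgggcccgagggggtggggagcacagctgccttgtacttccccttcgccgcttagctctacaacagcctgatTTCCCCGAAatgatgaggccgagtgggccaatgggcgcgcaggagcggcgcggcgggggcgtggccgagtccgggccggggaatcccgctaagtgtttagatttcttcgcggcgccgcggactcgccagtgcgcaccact
Socs1, chr16:10785487-10785786, minus strand: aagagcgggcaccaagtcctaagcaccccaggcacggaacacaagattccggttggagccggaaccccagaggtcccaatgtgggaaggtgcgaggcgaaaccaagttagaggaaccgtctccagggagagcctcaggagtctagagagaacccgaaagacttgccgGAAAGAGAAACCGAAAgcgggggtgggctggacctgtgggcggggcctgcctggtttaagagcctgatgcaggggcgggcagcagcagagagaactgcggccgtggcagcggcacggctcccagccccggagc

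The Irf1 window held the GAS match TTCCCCGAA at 90 to 82 bases before the start. Stat2 held the ISRE-like match TTTCAGTTTC at 222 to 213 bases before its start, on the reverse strand. In Socs1, GAAAGAGAAA and GAAACCGAAA overlapped, at 83 to 74 and at 77 to 68 bases before the start. The windows of Ifngr1 and Ifngr2 held neither set of letters. Of the members not printed, Ifnar1 held the GAS letters across its start and Ifnar2 at 214 to 206 bases before its start, and Jak1, Jak2 and a second Irf1 window held neither. Over all 32841 promoter windows of this length, 8.3% held the GAS letters and 3.44% the ISRE-like letters. A match is a run of letters and not a binding site.

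In GENCODE M21 (GRCm38), Ifnar2 (chr16:91372783-91405589), Ifnar1 (chr16:91485238-91507441) and Ifngr2 (chr16:91547072-91565623) follow each other on the plus strand. Il10rb, a chain of the receptors of interleukin-10 and interferon lambda, lies between Ifnar2 and Ifnar1 (chr16:91406164-91425834). Socs1 is elsewhere on the same chromosome (chr16:10782240-10785536). Ifngr1 (chr10:19591949-19610229) and Stat2 (chr10:128270559-128292849) are on chromosome 10, Irf1 on chromosome 11 (chr11:53770014-53778374), Jak1 on chromosome 4 (chr4:101152367-101265282) and Jak2 on chromosome 19 (chr19:29251828-29313080). All 9 are protein-coding. The largest overlap with exons of another gene was 9.46% of the exon bases of Ifnar2, shared with Gm21970, which has no line in the counts table.

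Of 1024 wells, 784 had at least 20000 counts on genes and 500 genes and were kept, 676 Endothelial and 108 DoubleNegative. Smart-seq2 reads full-length cDNA of 1 cell per well and has no molecular identifiers, which means that counts are reads and that intervals on shares of wells cover counting error only. The sums held 926398 to 94881185 counts. The smallest held 12 (WT DoubleNegative, preparation 2) and 14 wells (KO DoubleNegative, preparation 2), and in WT Endothelial preparation 2 a single well gave 17.7% of the counts. The 10 endothelial markers, Cdh5 and Pecam1 among them, summed to 14977 to 17744 CPM (counts scaled to the same total of gene counts in every sum) in the Endothelial sums and 22.7 to 1237 CPM in the DoubleNegative sums, where 8 smooth muscle markers reached 21089 to 53541 CPM and 8 fibroblast markers 6055 to 42841 CPM. The 8 leukocyte markers stayed at or below 4.66 CPM in every sum. The deleted part of amotl2 cannot be seen in counts per gene: Amotl2 was at 59.9 and 94.0 CPM in the WT and 51.9 and 45.7 CPM in the KO Endothelial sums. The EYFP reporter was at 2.38 and 0.353 CPM in WT and 113 and 85.5 CPM in KO. In preparation 1 WT and KO wells were on different plates, where the effects of plate and of genotype cannot be told apart, while those of preparation 2 shared a plate.

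The first comparison asked how receptor and kinase levels differ between Endothelial and DoubleNegative wells. Ifngr1, the ligand-binding chain, stood at 639 and 761 CPM in the WT and 886 and 788 CPM in the KO Endothelial sums (preparations 1 and 2). In the DoubleNegative sums it stood at 207 and 157 CPM in WT and 114 and 50.7 CPM in KO. The groups did not overlap, with 768 ± 102 CPM (SD, n = 4 sums) against 132 ± 66.2 CPM (n = 4). The log2 difference was 2.53 (SE 0.31, adjusted p = 0.00086, edgeR quasi-likelihood test, Benjamini-Hochberg over 12729 genes). The median difference of all genes tested was 0.148.

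Ifngr2, the signalling chain, went the other way. It stood at 40.9 and 19.6 CPM in the WT and 48.8 and 47.9 CPM in the KO Endothelial sums, and at 116 and 172 CPM in the WT and 168 and 239 CPM in the KO DoubleNegative sums. Every Endothelial sum was below every DoubleNegative sum, with means of 39.3 ± 13.6 and 174 ± 50.1 CPM (SD, n = 4 each). The log2 difference was -2.27 (SE 0.34, adjusted p = 0.0025, edgeR). Of the 9 members, 1 was called higher and 1 lower. Among all genes tested 19% were called, 9.79% higher and 9.25% lower, so the share of members called is near the background.

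Both calls were made within each genotype in the same model. In WT, Ifngr1 differed by 1.84 (SE 0.43, adjusted p = 0.037) and Ifngr2 by -2.34 (SE 0.49, adjusted p = 0.024). In KO, Ifngr1 differed by 3.22 (SE 0.45, adjusted p = 0.0051) and Ifngr2 by -2.20 (SE 0.48, adjusted p = 0.028). Preparation 1 alone gave log2 ratios of 2.29 for Ifngr1 and -1.65 for Ifngr2, and preparation 2 alone 3.12 and -2.73.

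**Figure D1:**
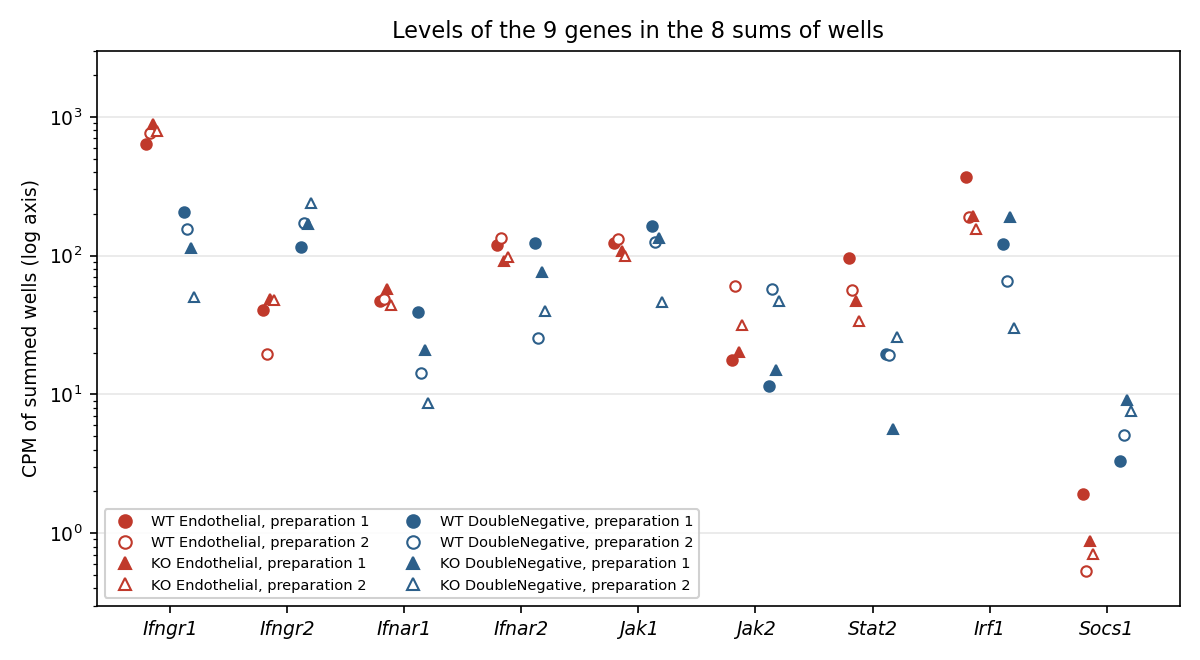
CPM of each of the 9 genes (log axis) in the 8 sums of wells. Red marks Endothelial and blue DoubleNegative sums, circles WT and triangles KO, filled symbols preparation 1 and open symbols preparation 2. Ifngr1 lies between 639 and 886 CPM in the Endothelial sums and at most at 207 CPM in the others, while the order is turned for Ifngr2.

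Expressed per exon length (RPKM, CPM per kilobase of exon), the chains were far from equal in ECs. Ifngr1 exceeded Ifngr2 by 20.7-fold and 51.4-fold in the WT Endothelial sums of preparations 1 and 2, and by 24-fold and 21.8-fold in the KO sums. In the DoubleNegative sums the same ratio was 2.35 and 1.21 in WT and 0.894 and 0.281 in KO. The Ifngr2 RPKM was 5.20 to 13 in the Endothelial sums and 30.9 to 63.3 in the DoubleNegative sums, so Ifngr2 was the scarcer chain in the Endothelial sums, by a wide margin, and the scarcer one in the WT DoubleNegative sums only.

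**Figure D2:**
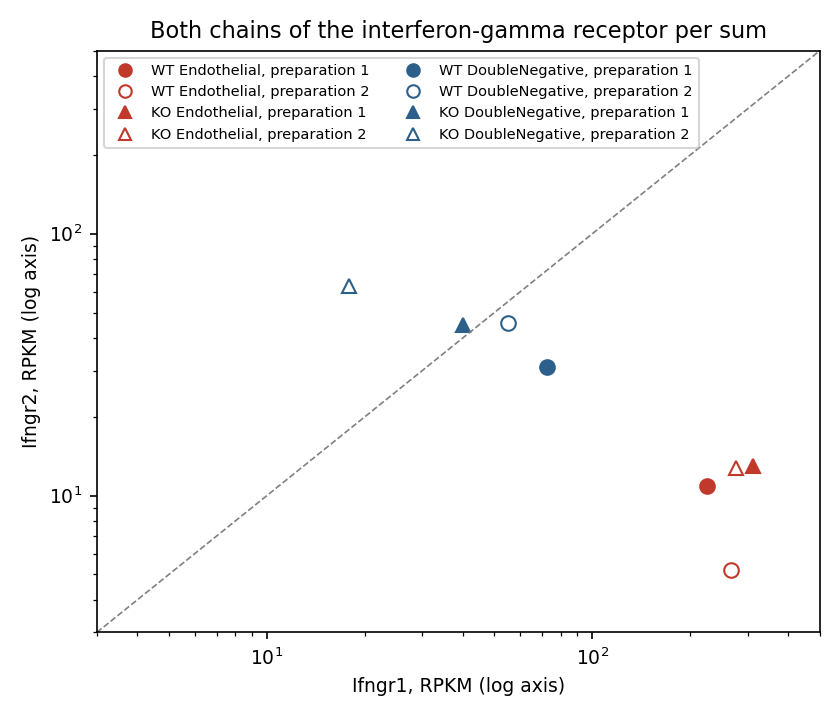
Ifngr1 against Ifngr2 in RPKM, both axes logarithmic, 1 symbol per sum, with the dashed line at equal levels. The 4 Endothelial sums lie far below the line at Ifngr2 levels of 5.20 to 13 RPKM, and the 4 DoubleNegative sums lie around it.

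The shares of wells with a count showed the same arrangement. Ifngr1 had a count in 641 of 676 Endothelial wells (94.8%, 95% exact interval 92.9 to 96.4%) and in 62 of 108 DoubleNegative wells (57.4%, 47.5 to 66.9%). Ifngr2 had a count in 255 Endothelial wells (37.7%, 34.1 to 41.5%) and 82 DoubleNegative wells (75.9%, 66.7 to 83.6%). To remove differences in depth, each well was thinned to 20000 counts, after which Ifngr1 was seen in 93.2% of Endothelial and 46.3% of DoubleNegative wells, and Ifngr2 in 24.4% and 69.4%. Of the Endothelial wells, 395 (58.4%) had counts of Ifngr1 and none of Ifngr2, 246 (36.4%) had both, 9 had Ifngr2 alone and 26 neither. Of the DoubleNegative wells, 17 (15.7%) had Ifngr1 alone, 45 (41.7%) both, 37 Ifngr2 alone and 9 neither. A well without a count of Ifngr2 is not shown to lack it, since the level was low and the share fell with depth.

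For the type I receptor, Ifnar1 stood at 47.3 and 49.0 CPM in the WT and 57.9 and 44.3 CPM in the KO Endothelial sums, and at 39.5 and 14.2 CPM in WT and 20.9 and 8.64 CPM in KO DoubleNegative sums. The 4 Endothelial sums lay above the 4 others, yet the log2 difference of 1.16 (SE 0.44) had an adjusted p of 0.105 (edgeR). Over 17 alternatives it was 0.35 to 1.64 and passed the test in 1, which left out the WT DoubleNegative sum of preparation 1. In means of the CPM per well the labels overlapped for Ifnar1, with 32.6 to 54.3 in the Endothelial sums and 45.1 in that DoubleNegative sum. After thinning, Ifnar1 had a count in 29.3% of Endothelial and 25.9% of DoubleNegative wells. Ifnar2, the chain that binds type I interferon most tightly, had overlapping groups. It stood at 120 and 134 CPM in the WT and 92.3 and 97.6 CPM in the KO Endothelial sums, against 123 and 25.3 CPM and 76.3 and 39.9 CPM in the WT and KO DoubleNegative sums. The difference was 0.61 (SE 0.46, adjusted p = 0.417, edgeR). Over 17 alternatives it was 0.27 to 1.41 and passed in 1, again without the WT DoubleNegative sum of preparation 1. That sum held the highest Ifnar1 and Ifnar2 levels of the DoubleNegative sums. In RPKM, Ifnar2 exceeded Ifnar1 in all 8 sums, the ratio of Ifnar1 to Ifnar2 being 0.204 to 0.352 in the Endothelial and 0.121 to 0.314 in the DoubleNegative sums.

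The kinase genes did not differ detectably between the labels. Jak1, which serves both receptors, stood at 123, 131, 109 and 99.6 CPM in the Endothelial sums (WT preparations 1 and 2, then KO) and at 164, 126, 134 and 46.4 CPM in the DoubleNegative sums. The difference was -0.11 (SE 0.34, adjusted p = 0.871, edgeR). Jak2, the kinase of Ifngr2, stood at 17.7, 60.7, 20.2 and 31.4 CPM and at 11.5, 57.7, 14.9 and 47.5 CPM, with a difference of -0.12 (SE 0.65, adjusted p = 0.930). In both labels the Jak2 level was higher in preparation 2 than in preparation 1, but single wells gave 64.7% (WT Endothelial), 40.6% (KO Endothelial), 42.1% (WT DoubleNegative) and 63.6% (KO DoubleNegative) of the Jak2 counts of preparation 2. In means of the CPM per well the WT Endothelial value of preparation 2 was 24.1 against 16.1 in preparation 1. The signs of these differences changed between settings. After thinning, Jak1 had a count in 51.8% of Endothelial and 53.7% of DoubleNegative wells, and Jak2 in 13.2% and 9.26%. Jak1 exceeded Jak2 in RPKM in all 4 Endothelial sums, by 1.5-fold to 4.82-fold, and in 3 of 4 DoubleNegative sums, the lowest Endothelial ratio being that of the WT sum of preparation 2 with its single well high in Jak2.

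Stat2, the transducer of type I interferon, stood at 96.5 and 56.3 CPM in the WT and 47.5 and 34.0 CPM in the KO Endothelial sums. In the DoubleNegative sums it stood at 19.6 and 19.2 CPM in WT and 5.62 and 25.9 CPM in KO. The groups did not overlap, and the log2 difference of 1.61 (SE 0.51) had an adjusted p of 0.060 (edgeR) and of 0.024 with DESeq2. Irf1 stood at 371 and 190 CPM in the WT and 192 and 155 CPM in the KO Endothelial sums, and at 122, 65.8, 189 and 30.2 CPM in the DoubleNegative sums. These overlapped, with a difference of 1.00 (SE 0.51, adjusted p = 0.226), and of 1.91 without the KO DoubleNegative sum of preparation 1 (adjusted p = 0.023). After thinning, Stat2 had a count in 33.0% of Endothelial and 11.1% of DoubleNegative wells, and Irf1 in 69.4% and 29.6%.

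Socs1 was scarce in both labels. Its counts were 76, 6, 83 and 6 in the Endothelial sums (1.90, 0.529, 0.875 and 0.708 CPM) and 22, 5, 86 and 7 in the DoubleNegative sums (3.32, 5.06, 9.12 and 7.56 CPM). Every Endothelial sum was below every DoubleNegative sum. The difference of -2.67 (SE 0.89) had an adjusted p of 0.071 with edgeR and of 0.0056 with DESeq2. Socs1 had a count in 29 of 676 Endothelial wells (4.29%, 2.89 to 6.10%) and in 20 of 108 DoubleNegative wells (18.5%, 11.7 to 27.1%), and in 1.18% and 6.48% after thinning. In all, 5 of the 9 members (Ifngr1, Ifngr2, Ifnar1, Stat2 and Socs1) had groups that did not overlap in the CPM of the sums, against 26.2% of all genes tested.

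**Figure D3:**
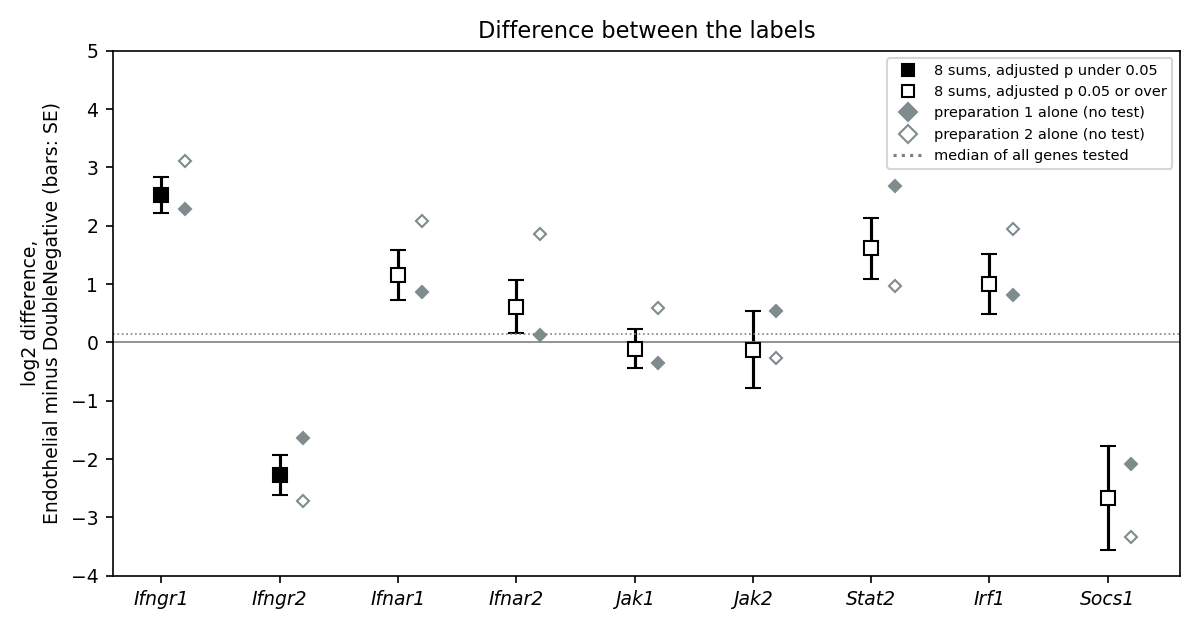
Log2 difference between Endothelial and DoubleNegative sums for each gene. Squares with SE bars are the edgeR fit of the 8 sums, filled where the adjusted p was under 0.05, diamonds are the ratios within each preparation (no test), and the dotted line is the median of all genes tested, 0.148. Only Ifngr1 at 2.53 and Ifngr2 at -2.27 are filled.

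The order of the members by RPKM in the Endothelial sums was Ifngr1 (mean 270 ± 35.7, SD, n = 4 sums), Irf1 (57.1 ± 24.6), Ifnar2 (33.3 ± 5.89), Jak1 (16 ± 1.96), Ifngr2 (10.4 ± 3.62), Stat2 (9.88 ± 4.54), Ifnar1 (8.35 ± 0.987), Jak2 (6.46 ± 3.92) and Socs1 (0.345 ± 0.212). The ranges of neighbours did not overlap between Ifngr1 and Irf1, Ifnar2 and Jak1, Jak1 and Ifngr2, and Jak2 and Socs1. The places of Ifngr2, Stat2 and Ifnar1 cannot be ordered, as each exceeded its neighbour in 2 of 4 sums. In the DoubleNegative sums the ranges of all neighbours in the order overlapped, and Ifngr1 (46.4 ± 23.3) and Ifngr2 (46.1 ± 13.3) led together.

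Wells were also clustered to see which cells hold which chain. The values are a description without a test, since the clusters were made from the same counts. The 7 clusters were named from markers: 5 endothelial, 1 smooth muscle and 1 fibroblast. Of the DoubleNegative wells, 70 were smooth muscle, 37 fibroblast and 1 endothelial, and of the Endothelial wells 660 were endothelial, 14 smooth muscle and 2 fibroblast. Ifngr1 was at 821 CPM over the 661 endothelial wells, 285 CPM over the 39 fibroblast wells and 98.6 CPM over the 84 smooth muscle wells. Ifngr2 was at 41.1, 50.0 and 212 CPM. In these pooled levels fibroblast wells were close to the endothelial wells in Ifngr2. In means of the CPM per well the fibroblast wells were higher, at 63.0 against 37.2 CPM. Smooth muscle wells stood apart from both, also per well (211 CPM).

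Among the 70 DoubleNegative wells in the smooth muscle cluster, Ifngr2 exceeded Ifngr1 in each genotype and preparation. Ifngr2 was at 214 and 188 CPM in WT (16 and 10 wells) and 205 and 271 CPM in KO (31 and 13 wells), where Ifngr1 was at 99.7, 77.5, 62.6 and 46.7 CPM. In the DoubleNegative fibroblast wells of preparation 1, Ifngr1 was at 271 (WT, 26 wells) and 284 CPM (KO, 9 wells), and Ifngr2 at 58.4 and 46.3 CPM. After thinning, Ifngr2 had a count in 81.0% of smooth muscle, 43.6% of fibroblast and 23.4% of endothelial wells. With wells left out whose cluster and label did not match, the difference between the labels was 2.62 for Ifngr1 and -2.39 for Ifngr2.

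Other members had unequal levels in the smooth muscle and fibroblast wells that the DoubleNegative label joins. Jak1 was at 219 CPM in fibroblast and 93.8 CPM in smooth muscle wells, with endothelial wells at 114 CPM. Irf1 was at 363, 55.1 and 237 CPM in the same order, and Ifnar2 at 154, 65.2 and 102 CPM. Stat2 was highest in endothelial wells, at 61.1 CPM, against 21.5 CPM in fibroblast and 8.32 CPM in smooth muscle wells. Socs1 was at 10.5 CPM in fibroblast, 5.78 CPM in smooth muscle and 0.893 CPM in endothelial wells. The pooled fibroblast levels of Irf1 and Socs1 leaned on few KO wells. In the DoubleNegative fibroblast wells of preparation 1, Irf1 was at 190 CPM in WT (26 wells) and 671 CPM in KO (9 wells). Socs1 was at 2.65 and 21.1 CPM there, the WT value lying below that of WT smooth muscle wells of preparation 1 (4.44 CPM).

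Among the endothelial clusters, Ifngr1 ranged from 478 to 919 CPM, and a count was present in 91.3% or more of the wells of each. Cluster 2, led by Cd74 and H2-Aa, genes of antigen presentation on MHC class II, held 155 WT wells and 1 KO well of preparation 1. In its 156 wells Stat2 was at 124 CPM and Irf1 at 445 CPM, against 41.0 to 67.4 CPM and 153 to 355 CPM in the other 4 endothelial clusters. Ifngr1 was at 641 CPM there, and Ifngr2, at 32.6 CPM, had its lowest endothelial value. These levels pool the counts of all wells. In means of the CPM per well, Stat2 was again highest in cluster 2 (124), while Irf1 was higher in cluster 6 (554, 23 wells) than in cluster 2 (438). Cluster 5, whose leading genes were Lrg1, Aqp1 and Cd36, had the highest Jak1 level, 304 CPM pooled and 293 CPM per well over 33 wells. Its Ifngr2 level was 70.5 CPM pooled and 42.4 CPM per well, against 59.8 and 61.3 CPM in cluster 6.

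**Figure D4:**
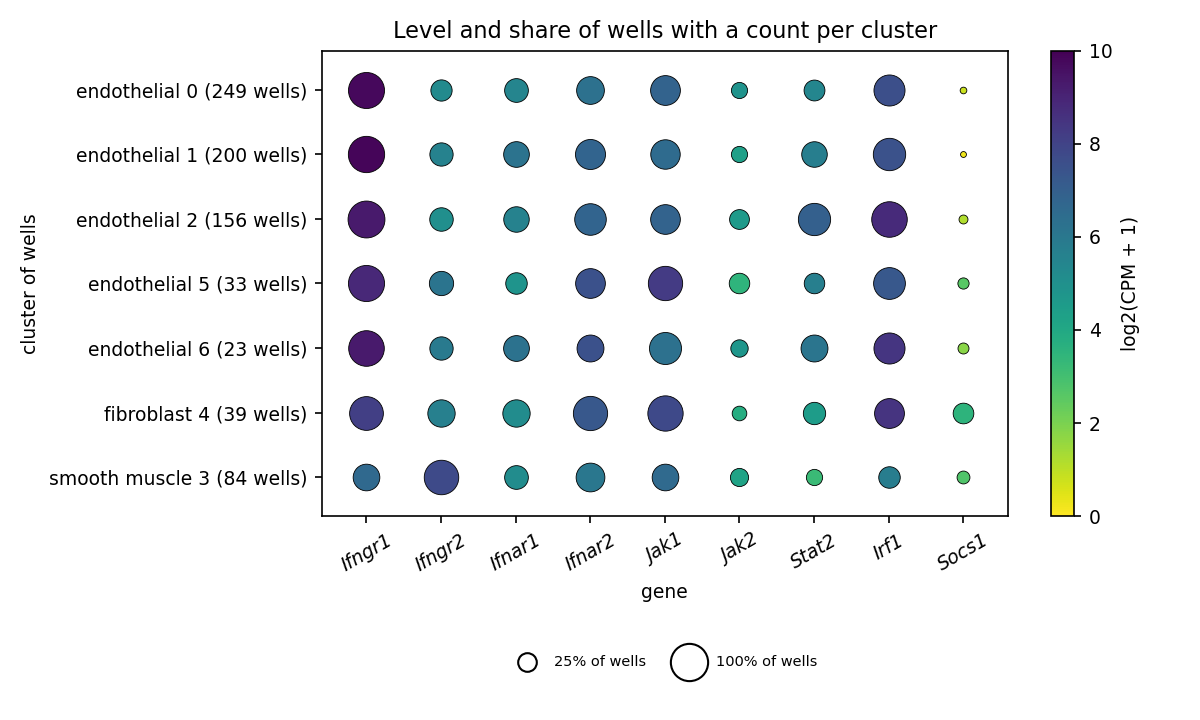
Level, as log2(CPM + 1) by colour, and share of wells with a count, by the area of the disc, of the 9 genes in the 7 clusters of wells. Ifngr2 has its darkest and largest disc in the smooth muscle cluster (212 CPM), and Stat2 and Irf1 in endothelial cluster 2 (124 and 445 CPM).

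Other genes of the pathway were followed as lists. The ligands had almost no counts. Ifng had no count in 676 Endothelial and 108 DoubleNegative wells. A floor of 3 wells puts the share of wells with a count at up to 0.444% and 2.78%, which limits wells with a read and not cells that express the gene. Of 10 ligand genes, only Ifnk had counts, 7 in 1 Endothelial well. Of 14 other interferon and JAK-STAT components tested, 4 were called higher and none lower in Endothelial sums, with a median of 1.46 against 0.148 for all genes. This and the counts of the lists that follow stand against 9.79% of all genes called higher and 9.25% called lower. These 4 were Jak3, the partner kinase of the common gamma chain, Il10rb, Stat3 and Stat4. Jak3 stood at 12.6 to 21.3 CPM and Stat4 at 0.118 to 11.4 CPM in the Endothelial sums, and neither had a count in any DoubleNegative sum. With the 4 Endothelial sums pooled, against a floor of 3 counts over the 4 DoubleNegative sums, Jak3 was at least 114-fold and Stat4 at least 34.5-fold higher. The pooled bound for Stat4 leaned on the WT sums (10.1 and 11.4 CPM). In the KO sums Stat4 was at 3.77 and 0.118 CPM, the latter below the floor of 0.167 CPM. Il10rb, the neighbour of Ifnar2, differed by 1.56 (SE 0.37, adjusted p = 0.018) and Stat3 by 1.33 (SE 0.34, adjusted p = 0.026).

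Irf9 and Tyk2, partners of the members, did not pass the test. Irf9, the DNA-binding partner of Stat2, differed by 1.57 (SE 0.58, adjusted p = 0.099) and Tyk2, the kinase of Ifnar1, by 1.37 (SE 0.56, adjusted p = 0.131). Of 15 other negative regulators, Cish was called higher (3.76, SE 0.80, adjusted p = 0.012) and Socs3 lower (-2.78, SE 0.60, adjusted p = 0.013), with a median of 0.107. Like Socs1, Socs3 inhibits the kinases. Socs3 stood at 14.6 to 40.8 CPM in the Endothelial and 50.6 to 507 CPM in the DoubleNegative sums. Beside it, 4 of 12 genes known to rise during tissue dissociation (Atf3, Fos, Nr4a1 and Egr1) were lower in Endothelial sums, and the part of dissociation in the Socs1 and Socs3 values was not tested. Of 14 other receptors that signal through Janus kinases, 6 were called higher and 1 lower, with a median of 1.34. Il2rg, the common gamma chain, stood at 70.5 to 187 CPM in the Endothelial sums and had no count in a DoubleNegative sum, and Lifr differed by 2.09 (SE 0.34, adjusted p = 0.0037). Il11ra1 differed by -2.75 (SE 0.35, adjusted p = 0.0011).

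Most genes induced by interferon gamma were higher in Endothelial sums. Of 27 tested, 22 were called higher, against 9.79% of all genes, and none lower, with a median of 4.06. The only value below 0 was that of Cxcl10, named after its value was seen, at -1.28 (SE 1.60, adjusted p = 0.649). Psmb9, a subunit of the immunoproteasome, differed by 4.44 (SE 0.38, adjusted p = 0.00022) and stood at 104 to 273 CPM in the Endothelial sums and 4.32 to 8.74 CPM in the others. Gbp4, a guanylate-binding protein, stood at 134 to 622 CPM and at 5.40 CPM or less. Of 22 genes induced by type I interferon, 8 were called higher and none lower, with a median of 2.10. The lists overlap in function, and many such genes respond to both kinds of interferon. Without the wells of cluster 2, 22 of 27 and 5 of 22 were called, and without the whole WT Endothelial sum of preparation 1, 14 of 28 and 3 of 22. The medians did not change when genes without a count in DoubleNegative sums were set to their bounds.

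The second comparison asked whether loss of amotl2 in ECs altered the members there. In the Endothelial sums 0 of 12702 genes were called between KO and WT with edgeR (0%), 468 had an unadjusted p under 0.05, and DESeq2 called 37, none of them a member. Of the members, Stat2 had the smallest p. It was lower in both KO sums (47.5 and 34.0 CPM) than in both WT sums (96.5 and 56.3 CPM), with a log2 difference of -0.91 (SE 0.33, unadjusted p = 0.023, adjusted p = 1.00). A single well gave 43.3% of the Stat2 counts of the WT sum of preparation 2, and in means of the CPM per well the genotypes overlapped, with 91.6 and 41.6 in WT and 44.8 and 29.7 in KO. Irf1 differed by -0.69 (SE 0.33, unadjusted p = 0.061, adjusted p = 1.00), the KO sum of preparation 1 and the WT sum of preparation 2 being nearly equal at 192 and 190 CPM. Cluster 2 was made from the same counts, is led by genes that interferon induces and holds 155 of the 235 WT wells of preparation 1, so that leaving it out takes wells with high levels of such genes from WT and narrows the difference by construction. Without those wells the differences were -0.20 for Stat2 and -0.19 for Irf1, which is no test of their source. Without the WT sum of preparation 2 the differences were -1.22 and -1.08. That fit sets only the WT sum of preparation 1, on its own plate and with most of its wells in cluster 2, against the KO sums. Genotype, plate and cluster cannot be told apart there.

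The receptor genes gave smaller differences in ECs. Ifngr1 differed by 0.26 (SE 0.25) and Ifngr2 by 0.69 (SE 0.39), with both KO sums above both WT sums for each gene. Ifnar2 differed by -0.41 (SE 0.26) and Jak1 by -0.28 (SE 0.25), with both KO sums below both WT sums. Ifnar1 (0.08, SE 0.29), Jak2 (-0.59, SE 0.56) and Socs1 (-0.62, SE 1.45) had sums of both genotypes intermixed. None had an adjusted p under 0.05. The share of all genes tested whose KO and WT sums separate in this way is not given. Separation of so few sums is thus by itself no evidence of a genotype effect, for these genes or for Stat2. In counts simulated for this comparison with 1 common spread for all genes, a log2 change of 1 was recovered for 0% of 200 changed genes and a change of 3 for 66%. The spread of single members can differ from the common one. These rates are thus a guide to what this number of sums can detect and not a limit for each member.

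**Figure D5:**
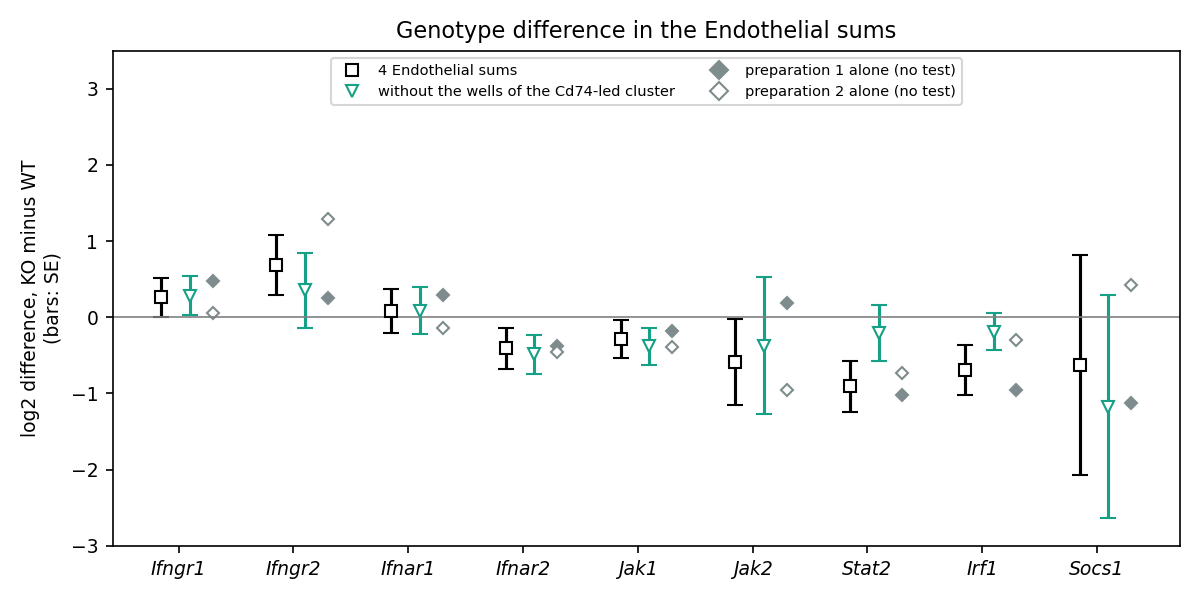
Log2 difference between KO and WT Endothelial sums for each gene. Squares with SE bars are the edgeR fit of the 4 sums, triangles the same fit without the wells of cluster 2, and diamonds the ratios within each preparation (no test). The Stat2 value moves from -0.91 to -0.20 and the Irf1 value from -0.69 to -0.19, while Ifngr1 stays at 0.26 and 0.28.

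The targets of interferon were set beside Stat2 and Irf1 in the Endothelial sums. Of 28 genes induced by interferon gamma, 27 had a lower value in KO, none was called, and the median was -1.32 against 0.00 for all genes. Their summed level was 14800 and 3218 CPM in the WT and 2624 and 3000 CPM in the KO sums of preparations 1 and 2, so the WT sum of preparation 1 stood above the other 3. Without the wells of cluster 2, which these genes lead, the median was -0.40. Other lists also lay to one side in this comparison, with no gene called. All 12 dissociation genes were lower in KO (median -0.75), at summed levels of 2826 and 5116 CPM in WT and 2523 and 2112 CPM in KO. All 8 smooth muscle markers (median 0.75), 8 fibroblast markers (1.14) and 4 tested pericyte markers (2.31) were higher in KO, at summed levels of 737 to 1187, 417 to 581 and 1.59 to 22.3 CPM in WT and 856 to 1670, 491 to 892 and 4.84 to 76.6 CPM in KO. The 4 adipocyte markers reached 168 CPM in the WT sum of preparation 1 and had no count in the other 3. The part of these genes and cells in the values of the members was not tested. Within the single wells, the gene whose level was most like that of Stat2 was Irgm2, an interferon-induced GTPase. Its Pearson r of log2(CPM + 1), averaged over the 4 Endothelial sums, was 0.31, with 0.29 to 0.33 in the single sums, among 7272 genes. For Jak1 it was Coro1b, a regulator of actin, at 0.30 (0.11 to 0.61). No gene reached a mean r of 0.3 for the other 7 members. These are correlations over wells that share depth and plate, given as a description.

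In the DoubleNegative sums 0 of 10544 genes were called between KO and WT with edgeR (0%), with 275 at an unadjusted p under 0.05 and 5 called by DESeq2, none of them among the 9. Ifngr1 was lower in both KO sums (114 and 50.7 CPM) than in both WT sums (207 and 157 CPM), with a difference of -1.14 (SE 0.56, unadjusted p = 0.072, adjusted p = 1.00). Ifngr2 differed by 0.53 (SE 0.51, adjusted p = 1.00). In preparation 1 the mix of cells moved with genotype. The WT sum held 16 smooth muscle and 26 fibroblast wells there, and the KO sum 31 and 9. In preparation 2 the WT sum held 10 smooth muscle, 1 fibroblast and 1 endothelial well, and the KO sum 13 smooth muscle and 1 fibroblast well. The log2 ratio of KO to WT for Ifngr1 was -0.86 in preparation 1 and -1.63 in preparation 2. Within smooth muscle wells alone the Ifngr1 levels were 99.7 and 77.5 CPM in WT and 62.6 and 46.7 CPM in KO. In the WT sum of preparation 2 a single well gave 32.9% of the Ifngr1 counts, and the fibroblast well was at 744 CPM. Whether both KO sums stay below that WT sum without its endothelial well was not tested. The part of the mix in the difference was not tested either. The share of all genes whose DoubleNegative sums separate by genotype, as those of Ifngr1 did, is not given either. For the difference between the genotype differences of Endothelial and DoubleNegative sums, 0 of 12729 genes were called with edgeR (0%), with 657 at an unadjusted p under 0.05 and 46 called by DESeq2. Ifngr2 had a value of 0.14 (SE 0.66) there, whose sign changed between settings.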

How the data were processed

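Aortic cells were sequenced with Smart-seq2. Per the labels and the methods, the authors aligned reads to GRCm38 with spike-in and EYFP sequences with STAR 2.7.7a, removed duplicate reads with Picard 2.22.0 and assigned reads to genes with HTSeq 0.9.1. The deposited values are raw counts per gene and well, with no normalization. The annotation release is not given in the sources used here. Gene lines held 51.9% of all counts, and 92 spike-in lines (1.25%) and 5 summary lines (46.9%) were left out.

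Wells with at least 20000 counts and 500 genes were summed per label, genotype and preparation. No kept well had the same counts as another, and no doublet caller was run, as single cells were sorted. Sums were compared in edgeR 4.0.16 by its quasi-likelihood test (TMM factors, genes filtered by filterByExpr, Benjamini-Hochberg over all genes tested, two-sided, threshold 0.05), which covers the spread between preparations only. CPM values were scaled to the counts on genes, and RPKM values were computed with GENCODE M21 exon lengths (95.7% of symbols matched). Shares have 95% Clopper-Pearson intervals. Wells were clustered with Seurat 5.3.0 (2000 variable genes, 30 dimensions, resolution 0.5) and clusters named by fixed markers. R was version 4.3.3 and scipy 1.17.1.

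By the labels, sums of the same genotype and preparation come from the same sort, so they are paired. After removal of the mean of each label, their deviations correlated by 0.0200 to 0.0756 between the labels. For the more highly expressed genes alone the values were 0.0465 to 0.124. After removal of the mean of each label and genotype, the deviations correlated by 0.139 between the genotypes in Endothelial and by 0.0761 in DoubleNegative sums. For the more highly expressed genes alone these were 0.256 and 0.0886. The alternatives were this block, other factors (RLE, library size alone), no filter, DESeq2 1.42.0, sums left out, deep wells, thinned wells, wells whose cluster and label match, 8 sums sharing a spread and, chosen after seeing the data, wells without cluster 2 and single preparations. The edgeR test was checked on counts simulated with 1 common spread for all genes. Between the labels, changes of 1, 2 and 3 on the log2 scale were recovered for 0%, 8% and 77% of 200 genes.

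The members and gene lists were chosen with earlier results of these data known. Named beside the 9 members are, per list, up to 4 genes with the smallest p, Tyk2, Irf9, Socs3 and Ifng, and like-patterned genes (a count in at least 20% of Endothelial wells, mean r of at least 0.3 and r above 0 in all 4 sums). A further gene of this rule is not reported here.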

Additional observations from a re-analysis of the deposited data

Results flagged for a closer look

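Ifngr1 was flagged because its genotype differences had opposite signs in the Endothelial and DoubleNegative sums. Both KO Endothelial sums (886 and 788 CPM) were above both WT sums (639 and 761 CPM), and both KO DoubleNegative sums (114 and 50.7 CPM) were below both WT sums (207 and 157 CPM). The share of all genes with this pattern is not given. The WT DoubleNegative sum of preparation 2 held 12 wells, 1 of them in an endothelial cluster, and a single well gave 32.9% of its Ifngr1 counts. Whether the DoubleNegative sums separate without the endothelial well was not tested. A test on the values that led to the flag is no support for it. In that test 657 of 12729 genes had an unadjusted p under 0.05. The difference between the log2 differences was 1.38 (SE 0.59, unadjusted p = 0.044, adjusted p = 0.955 in the edgeR fit of the 8 sums), so it did not pass the test. Over 17 alternatives it was 0.79 to 2.06, with adjusted p-values of 0.553 to 1.00.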

How the results depend on the processing

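The calls of Ifngr1 (2.32 to 2.87) and Ifngr2 (-2.59 to -2.04) between the labels were kept in all 17 alternatives. Stat2 passed in 5: library size alone (1.73), no filter (1.63), DESeq2 (1.55), thinned wells (2.30) and without the KO DoubleNegative sum of preparation 2 (2.33). Socs1 passed with DESeq2 (-2.71) and had no value in thinned wells, where it was filtered out, and Irf1 passed without a filter (1.01) and without the KO DoubleNegative sum of preparation 1 (1.91). Jak1 turned to 0.029 in wells with 100000 or more counts and to 0.58 in preparation 2 alone, and ranged from -0.37 to 0.36 with single sums left out. Jak2 turned to 0.030 with the replicate block and to 0.53 in preparation 1 alone, and ranged from -0.67 to 0.66 with single sums left out. In Endothelial sums between genotypes, Jak2 turned to 0.28 in thinned wells and ranged from -1.25 to 0.58, and Ifnar1 from -0.015 to 0.18, with single sums left out. The Ifngr2 difference between genotype differences turned to -0.18 in thinned wells and -0.16 without cluster 2, and ranged from -0.31 to 0.80 with single sums left out. The cause was not tested.

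The number of genes called between the labels was 1355 to 2542 with single sums left out, and was lowest without each of the Endothelial sums: 1496 and 1435 without WT, 1399 and 1355 without KO preparations 1 and 2. The replicate block gave 1964 and library size alone 2485, the latter with a median of 0.264. In Endothelial sums between genotypes 1 gene was called with the replicate block, RLE factors, library size alone or matching wells, 8 in thinned wells, 37 with DESeq2, 104 without a filter and 5 to 311 with single sums left out, where the lone sum is assumed to vary like the other group. In DoubleNegative sums 5 were called with DESeq2, 24 without a filter and 0 to 79 with single sums left out. The interaction gave 46 with DESeq2, 163 without a filter and 0 to 42 with single sums left out. The pairing of preparations, as a block, changed no call of a member. With 2 sums per group, a log2 change of 1 was not recovered in counts simulated with 1 common spread, from which single members can differ. The DoubleNegative sums of 12 and 14 wells limit the low genes, Socs1 above all.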
